A study of Homo sapiens with 6 samples.

Results

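The genes described here encode the inhibitors of cyclin-dependent kinases (CDKs): CDKN1A, CDKN1B and CDKN1C of the CIP/KIP family, CDKN2A, CDKN2B, CDKN2C and CDKN2D of the INK4 family, and the phosphatase gene CDKN3. They were taken by name, as the probe sets of the array whose platform annotation gives that gene and no other. Of the 8 genes, 7 had such a probe set, out of 17534 genes in all, and they were read by 22 of 47481 probe sets. CDKN2C is not analysed here. Expression was measured on Affymetrix PrimeView arrays, which read the 3' part of transcripts from biotin-labelled cRNA, in the MM.1R line, human multiple myeloma cells resistant to glucocorticoids. In 3 arrays the cells had been given epirubicin hydrochloride, an anthracycline that poisons topoisomerase II, and in 3 arrays they carried a control short hairpin construct delivered by infection (shCtrl). The submitters added the drug to halt proliferation. The construct is named for the control arrays and not for the drug arrays, and no dose, exposure time or origin in separate cultures is given in the sources used here. Drug and construct therefore cannot be told apart, and because the arrays of a group may be technical repeats, p-values measure no more than the spread among these arrays.

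CDKs drive the cell cycle when bound to a cyclin. CIP/KIP proteins bind whole cyclin-CDK complexes and act mainly on those containing CDK2, whereas INK4 proteins bind CDK4 and CDK6 alone and keep D cyclins from them. The CDKN3 protein, KAP, is a phosphatase that removes the activating phosphate from CDK2. CDKN1A is the classic arrest gene induced by p53 after DNA damage, and in myeloma some INK4 genes are known to be lost by deletion or silenced by promoter methylation.

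The reference promoters of 3 of these genes are shown because the genes behaved differently with epirubicin: CDKN1A was higher, CDKN3 was lower, and CDKN1B was called in neither direction. Each is the 250 bases before the transcript start, 5' to 3' on the gene's strand, from RefSeq (GRCh38.p14). They lie at chr6:36678464-36678713 on the plus strand for CDKN1A, chr14:54396757-54397006 on the plus strand for CDKN3 and chr12:12717118-12717367 on the plus strand for CDKN1B. The CDKN1A window lies inside the annotated gene, downstream of another, more distal start. Capitals mark matches on either strand to the GC box GGGCGG, the CCAAT box CCAAT and the cell cycle homology element (CHR) TTTGAA.
CDKN1A: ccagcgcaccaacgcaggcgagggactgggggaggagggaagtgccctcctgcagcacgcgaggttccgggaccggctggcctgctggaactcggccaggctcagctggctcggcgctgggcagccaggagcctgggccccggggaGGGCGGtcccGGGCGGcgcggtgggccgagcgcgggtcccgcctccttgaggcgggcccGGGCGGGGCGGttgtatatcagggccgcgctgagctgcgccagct
CDKN3: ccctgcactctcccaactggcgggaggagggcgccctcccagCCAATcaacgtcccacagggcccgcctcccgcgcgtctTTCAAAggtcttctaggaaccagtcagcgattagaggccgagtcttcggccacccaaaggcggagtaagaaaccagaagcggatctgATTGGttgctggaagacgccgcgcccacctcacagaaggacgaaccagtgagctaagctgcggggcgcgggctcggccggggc
CDKN1B: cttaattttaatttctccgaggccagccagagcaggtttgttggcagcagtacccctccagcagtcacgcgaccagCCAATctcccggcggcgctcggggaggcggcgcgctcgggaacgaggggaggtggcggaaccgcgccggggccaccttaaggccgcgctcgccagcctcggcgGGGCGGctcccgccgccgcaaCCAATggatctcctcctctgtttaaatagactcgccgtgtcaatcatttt

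The CDKN1A window held 4 GC boxes, 2 of which share a base, and the CDKN3 window held 0. The CDKN3 window held 2 CCAAT boxes and 1 CHR, the element through which many genes of G2 and mitosis are repressed. The CDKN1B window held 2 CCAAT boxes and 1 GC box. Over all 35116 windows of this length in the RefSeq table, 42.6% held a GC box, 32.0% a CCAAT box and 13.3% a CHR, so none of these motifs is rare. The 7 member genes with windows in that table, 10 in all, include CDKN2C but not CDKN1C, whose promoter was therefore not searched. Among the 10, 7 held a GC box and 4 a CCAAT box, and the CDKN3 window was the one with a CHR. The windows of CDKN2B and CDKN2D, called in neither direction, held 2 GC boxes each. A link between these motifs and the direction of change was not tested. No window of these genes held a full p53 response element (a pair of half-sites up to 13 bases apart), searched without allowing a mismatch. So strict a pattern was found in 9 of all 35116 windows (0.0256%), so the search could not show that p53 sites are absent. The p53 sites described for CDKN1A lie further upstream than the bases searched.

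Where a gene had several probe sets, the one with the brightest average signal stands for it below. A gene was called higher or lower when it differed at least 1.3-fold with an adjusted p below 0.05 (1.3-fold is a log2 change of 0.38), the thresholds of the series' design text, in limma with Benjamini-Hochberg adjustment over all 17534 genes. With epirubicin, 2 of the 7 genes were higher, CDKN1A and CDKN1C, and 1 was lower, CDKN3. Over all genes, 4.36% were called higher and 2.14% lower. The median log2 change of the 7 genes was -0.05, against 0.02 over all genes. The 3 arrays of each group did not overlap for 5 of the 7 genes, which was the case for 43.8% of all genes. At any fold, 5 of the 7 had an adjusted p under 0.05, 2 of them higher and 3 lower, against 29.1% of all genes (15.6% higher and 13.5% lower).

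**Figure D1:**
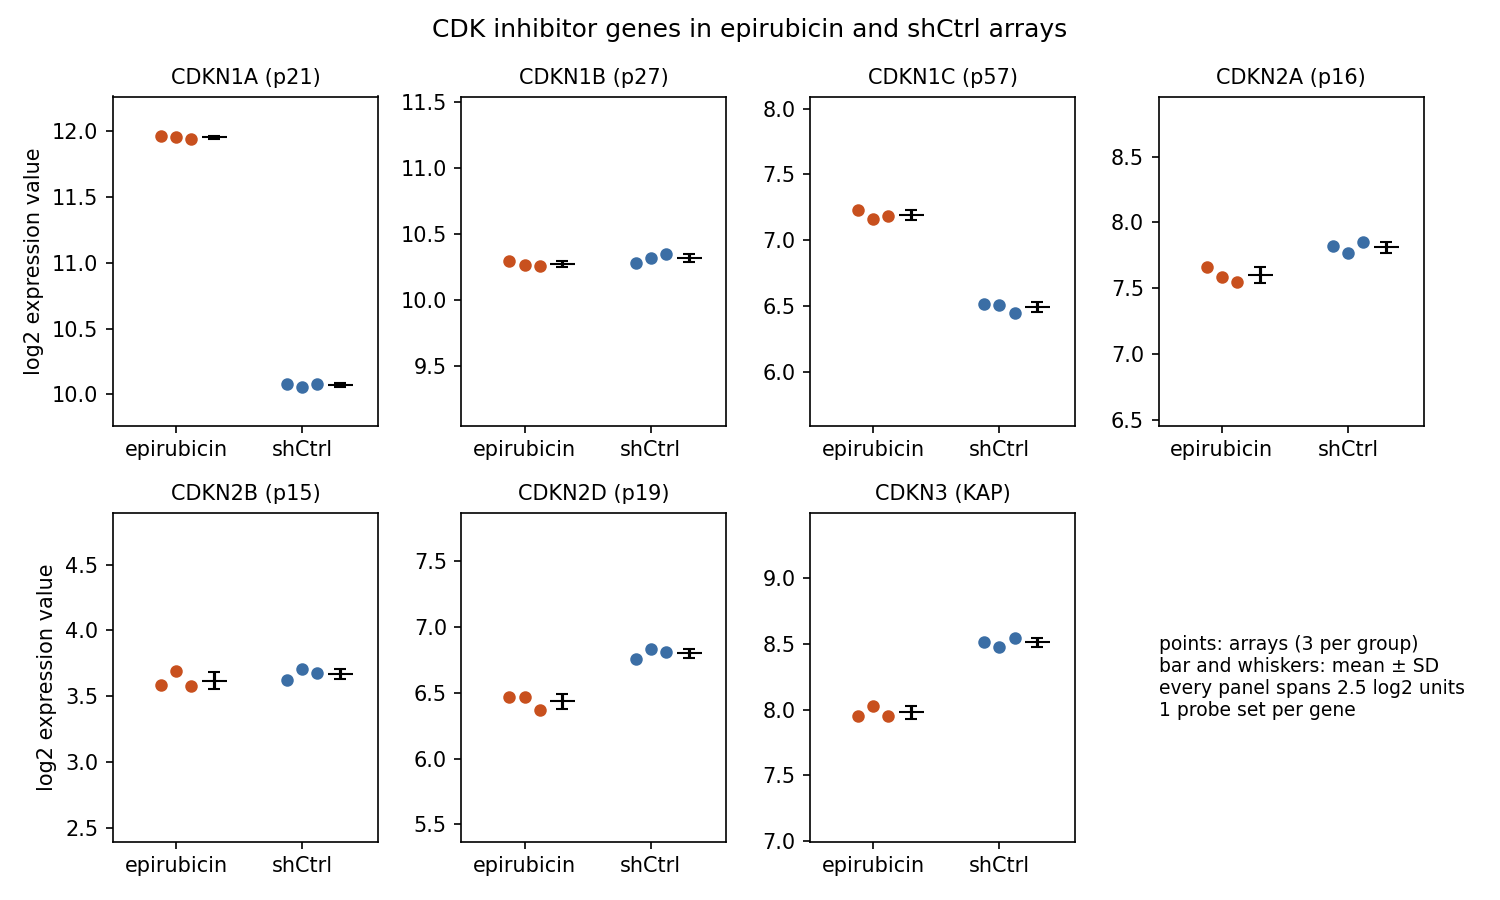
Log2 expression value (vertical axis) of the 7 CDK inhibitor genes in the 3 epirubicin arrays (left in each panel) and the 3 shCtrl arrays (right), with mean ± SD beside the points. Every panel spans the same range of log2 units, so distances compare across panels: CDKN1A stands apart by 1.88, CDKN1C by 0.70 and CDKN3 by -0.53 (epirubicin minus shCtrl), and CDKN1B and CDKN2B overlap between groups.

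Among the CIP/KIP genes, CDKN1A had the largest change. It encodes p21, which inhibits cyclin-CDK complexes and also binds the replication clamp PCNA. Its log2 values were 11.96, 11.96 and 11.94 in epirubicin arrays, against 10.08, 10.06 and 10.08 in shCtrl arrays. Every epirubicin array lay far above every shCtrl array, and the arrays of a group differed by hundredths of a log2 unit. The mean was 11.95 ± 0.01 with epirubicin and 10.07 ± 0.01 in shCtrl (SD, n = 3 each), a 3.68-fold rise (log2 change 1.88, SE 0.03, 95% CI 1.81 to 1.95, limma adjusted p = 1.15e-06). The change ranked 13 among the 17534 genes ordered from the largest increase. The other CDKN1A probe set gave the same picture on a dimmer signal, at 10.39, 10.44 and 10.44 in epirubicin arrays against 8.53, 8.45 and 8.45 in shCtrl arrays, a log2 change of 1.95 (SE 0.04). Both are tied to the same sequence record, so they may not be independent readings. The signal was bright in the shCtrl arrays as well, where the probe set used exceeded at least 95.9% of all probe sets.

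CDKN1C encodes p57, the imprinted CIP/KIP member that restrains proliferation in development. It was at 7.23, 7.16 and 7.19 in epirubicin arrays, against 6.52, 6.51 and 6.45 in shCtrl arrays. Again the groups did not overlap. The means were 7.19 ± 0.04 with epirubicin and 6.49 ± 0.04 in shCtrl (SD, n = 3 each), a 1.63-fold rise (log2 change 0.70, SE 0.04, CI 0.61 to 0.79, limma adjusted p = 6.02e-05). All 3 CDKN1C probe sets were called higher, with log2 changes from 0.70 to 0.84. The annotation ties those at 0.70 (the brightest) and 0.84 to the same sequence record, so they may share probes and are not independent readings. The probe set at 0.84 also carries the array maker's mark for probes that can match other sequences. The change ranked 195 among the 17534 genes.

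CDKN1B encodes p27, whose amount is set largely by degradation of the protein, a step that arrays of RNA do not see. Its log2 values were 10.29, 10.26 and 10.26 in epirubicin arrays, against 10.28, 10.32 and 10.35 in shCtrl arrays. The groups overlapped, and the log2 change was -0.04 (SE 0.03, CI -0.12 to 0.03, limma adjusted p = 0.383), so that a change of 1.3-fold in either direction lay outside the interval. On the second CDKN1B probe set the groups did not overlap, at 8.63, 8.64 and 8.59 in epirubicin arrays against 8.74, 8.85 and 8.82 in shCtrl arrays. Its log2 change of -0.19 (SE 0.04, CI -0.29 to -0.09, limma adjusted p = 0.0192 over all probe sets) was under the fold threshold.

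The 3 CIP/KIP genes thus changed unequally. Taken within each array, CDKN1A changed more than CDKN1B by 1.93 on the log2 scale (SE 0.02) and more than CDKN1C by 1.18 (SE 0.03), and CDKN1C changed more than CDKN1B by 0.75 (SE 0.04). In each of these 3 comparisons, and in the 2 given below, the two-sided exact permutation p over arrays was 0.1, the smallest that 3 against 3 arrays allow, so these tests could not pass 0.05.

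The 3 INK4 genes with probe sets were called in neither direction. CDKN2D encodes p19, an INK4 protein whose level varies with the cell cycle, and came closest. Its only probe set was at 6.46, 6.47 and 6.37 in epirubicin arrays, against 6.76, 6.83 and 6.81 in shCtrl arrays. The groups did not overlap, and the means were 6.44 ± 0.06 with epirubicin and 6.80 ± 0.04 in shCtrl (SD, n = 3 each). The log2 change of -0.36 (SE 0.04, CI -0.46 to -0.26, limma adjusted p = 0.00112) corresponded to 1.29-fold, just under the threshold of 1.3. Without epirubicin replicate 1, without epirubicin replicate 2 or without shCtrl replicate 1 it became -0.38 in each case and was called lower, and with each array centred on its median it was -0.40 and called.

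CDKN2A encodes 2 unrelated proteins from different first exons, the CDK4 and CDK6 inhibitor p16 and the MDM2-binding protein ARF. Which of the transcripts each probe set reads was not determined. The brightest CDKN2A probe set was at 7.66, 7.59 and 7.55 in epirubicin arrays, against 7.82, 7.77 and 7.85 in shCtrl arrays. The groups did not overlap, but the log2 change was -0.21 (SE 0.04, CI -0.32 to -0.11, limma adjusted p = 0.0109), a 1.16-fold difference under the fold threshold. On the other 2 CDKN2A probe sets the groups overlapped, with log2 changes of -0.03 (CI -0.16 to 0.10) and -0.20 (CI -0.41 to 0.01). The change of CDKN2D minus that of CDKN2A, taken within each array, was -0.15 (SE 0.05).

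CDKN2B encodes p15, an INK4 protein induced by TGF-beta in epithelial cells, and lies beside CDKN2A. Its brightest probe set was at 3.59, 3.69 and 3.58 in epirubicin arrays, against 3.63, 3.71 and 3.67 in shCtrl arrays. The groups overlapped on all 3 CDKN2B probe sets, and the log2 changes lay between -0.11 and -0.05 (limma adjusted p = 0.472 for the gene). On every array all 3 probe sets were dimmer than the lower quartile of signals (3.84 to 3.90). At so dim a signal, and without detection calls, neither presence of the transcript nor a modest change in it could be read.

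CDKN3 was the member called lower. Its log2 values were 7.95, 8.03 and 7.95 in epirubicin arrays, against 8.51, 8.48 and 8.54 in shCtrl arrays. The groups did not overlap. The means were 7.98 ± 0.05 with epirubicin and 8.51 ± 0.03 in shCtrl (SD, n = 3 each), so that CDKN3 was 1.45-fold lower (log2 change -0.53, SE 0.04, CI -0.63 to -0.44, limma adjusted p = 0.000184). When tested against the 1.3-fold threshold itself (limma's treat) it was no longer called, at an adjusted p of 0.108.

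Of the 8 CDKN3 probe sets, 7 were called lower, with log2 changes from -0.60 to -0.53. These 7 carry the array maker's mark for probes that can also match other sequences, and the annotation ties them to different sequence records of the same gene, so they may share probes and are not independent readings. The eighth did not carry that mark, and was at 5.26, 5.15 and 5.17 in epirubicin arrays against 5.00, 5.07 and 5.12 in shCtrl arrays. Over the arrays the 7 exceeded 50.3% to 86.8% of all probe sets, and the eighth, which was dimmer, 42.5% to 45.5%. Its groups did not overlap in the opposite direction, by 0.13 on the log2 scale (CI 0.01 to 0.25, limma adjusted p = 0.115 over all probe sets), and it was not called. The mean of the 7 changed by -0.69 (SE 0.06) relative to the eighth. The 7 were set apart by their call on these same arrays, so a separation was built into this comparison. As a mean over all 8 probe sets the CDKN3 change was -0.47 and still called.

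**Figure D2:**
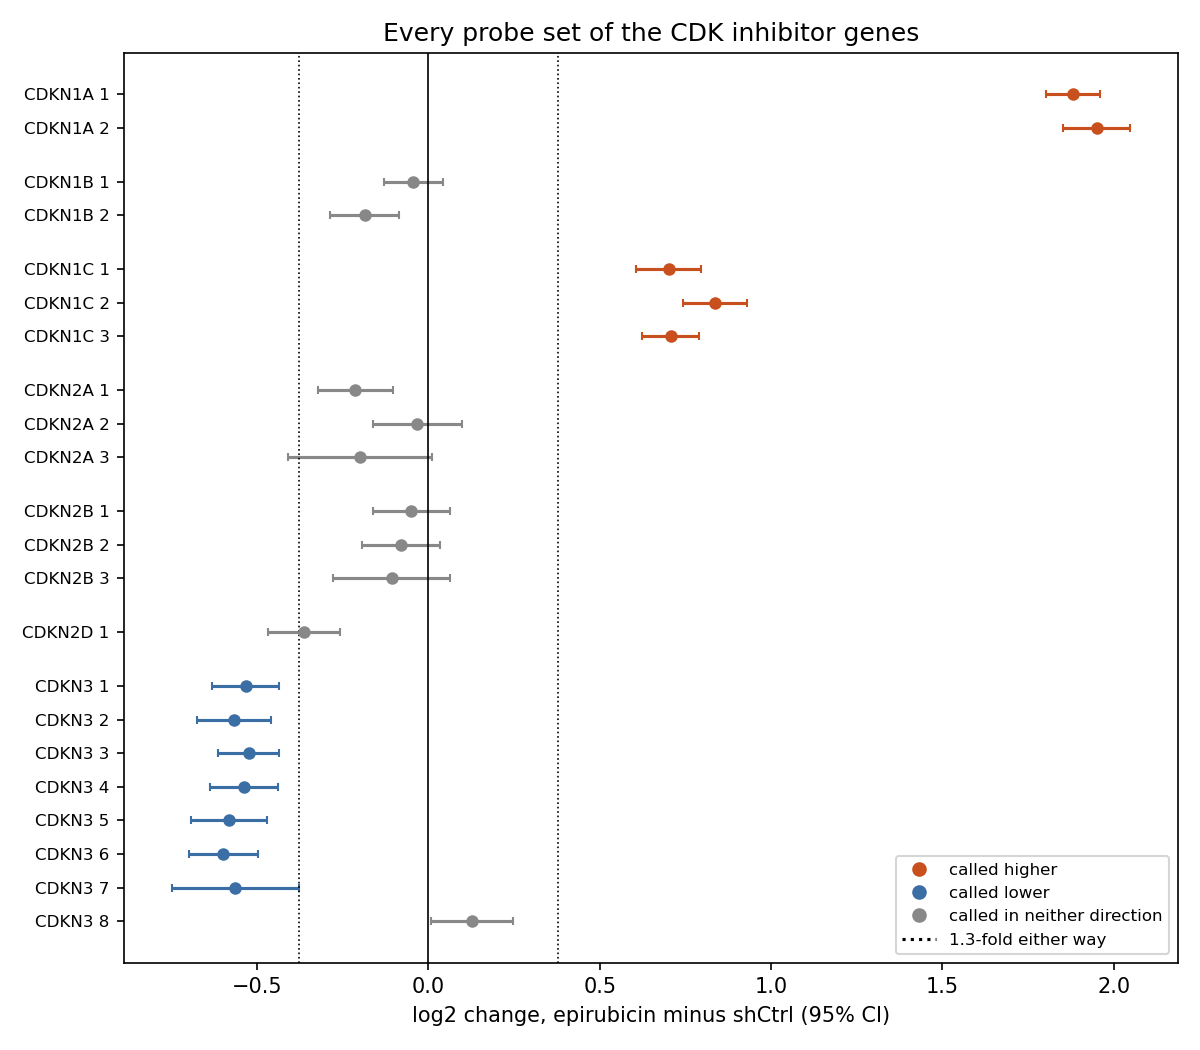
Log2 change, epirubicin minus shCtrl, with its 95% CI (horizontal axis) for each of the 22 probe sets of the CDK inhibitor genes, numbered within a gene from the brightest; dotted lines mark 1.3-fold either way. The 2 CDKN1A and 3 CDKN1C probe sets lie to the right of the upper line, 7 of the 8 CDKN3 probe sets to the left of the lower one, and CDKN2D at -0.36 just inside it.

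Counted by probe set, 5 of 22 were higher and 7 lower, the 7 all in CDKN3. In the whole table of 47481 probe sets, 1735 were called higher (3.65%) and 1242 lower (2.62%). With each array centred on its median the split over all probe sets was 1478 higher and 1633 lower, while 5 of the members' probe sets were higher and 8 lower, the 8 being the 7 of CDKN3 and that of CDKN2D. Groups did not overlap for 16 of the 22, against 41.2% of all probe sets.

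Among the 7 genes, CDKN2D was the one whose call turned most often on the processing, in 5 of 16 alternatives, as the plot of changes under other processing choices shows. CDKN1A was called higher in all 16.

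**Figure D3:**
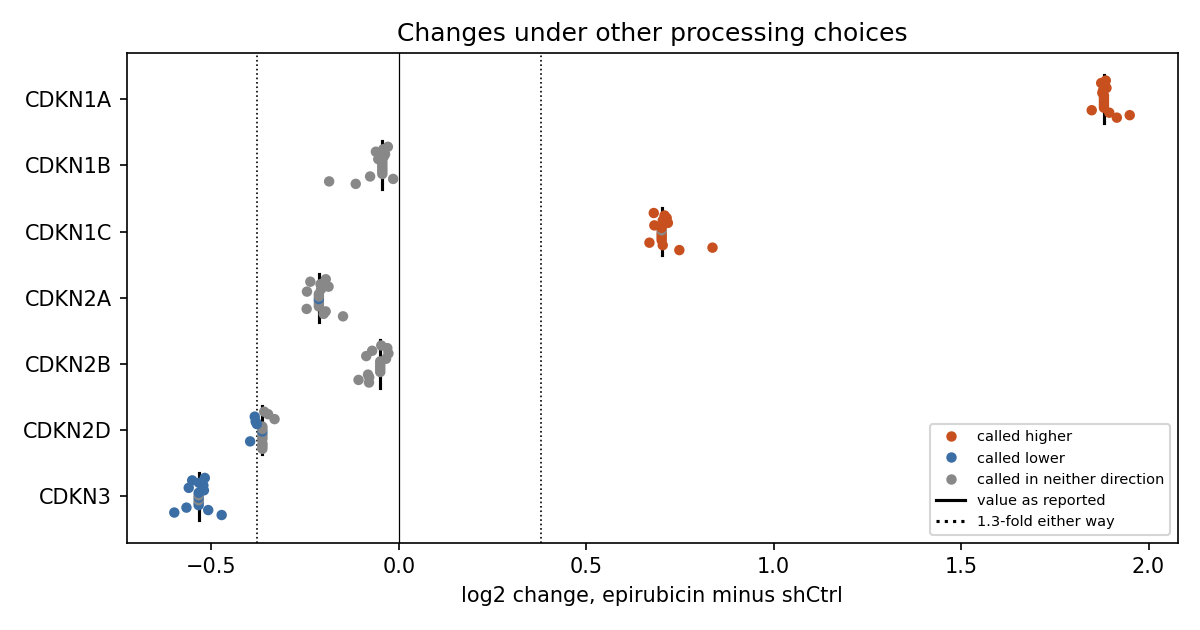
Log2 change, epirubicin minus shCtrl (horizontal axis), of each CDK inhibitor gene as reported (black bar) and under the other processing choices tried (points, coloured by call). CDKN1A stays between 1.85 and 1.95 and is called under each choice, and CDKN2D straddles the dotted line of 1.3-fold.

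By the size of the difference in log2 values after centring each gene on its mean, the genes most like CDKN1A over the 6 arrays were CHRNA1, a subunit of the muscle acetylcholine receptor (root mean square difference 0.05), PMAIP1, the gene of the proapoptotic protein NOXA (0.06), and the phospholipase gene PLA1A (0.06). Those most like CDKN1C were TPBG, PTPRO and VEGFA, with root mean square differences of 0.01, 0.02 and 0.03. Those most like CDKN3 were the cochaperone gene STIP1 (0.02), JPT1 (0.02) and the proliferation marker MKI67 (0.02). MKI67 was at 10.35, 10.37 and 10.36 in epirubicin arrays, against 10.90, 10.85 and 10.89 in shCtrl arrays. In bulk RNA, fewer cells in a cycle phase and less RNA per cell cannot be told apart, for CDKN3 as for MKI67.

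Of 13 genes of the CDKs and cyclins that these proteins bind, 0 were higher and 4 lower, with a list median of -0.06. Of all genes, 4.36% were called higher and 2.14% lower, the shares to set beside this list and those below. At any fold, 6 of the 13 had an adjusted p under 0.05, against 29.1% of all genes. The 4 called lower included CCNB1 and CCNB2, which encode the B cyclins of mitosis (log2 changes -1.79, SE 0.04, and -0.67, SE 0.03). The others were CCNA2, the cyclin of S and G2 phase (-0.41, SE 0.04), and CDK6, a target of INK4 proteins (-0.39, SE 0.04, with 1 of 4 probe sets called). CDK1 changed by -0.31 (SE 0.04, limma adjusted p = 0.00141), under the fold threshold, with 1 of 3 probe sets called lower. CDK2 was at 8.18, 8.04 and 8.19 in epirubicin arrays against 8.01, 8.04 and 8.11 in shCtrl arrays, and CDK4 changed by -0.06 (SE 0.03). Neither was called, nor were the D and E cyclin genes, whose log2 changes lay between -0.19 (CCND1) and 0.10 (CCNE1).

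Of 5 genes of the CDK-activating kinase and the CKS subunits, 1 was lower, CKS2, which encodes a small CDK-binding subunit, at 9.99, 10.00 and 10.02 in epirubicin arrays against 10.76, 10.68 and 10.75 in shCtrl arrays (log2 change -0.72, SE 0.04). CKS1B, the cofactor of SKP2 in the degradation of p27, changed by -0.23 (SE 0.04), under the fold threshold. Of 6 genes of RB1, its relatives and the activator E2Fs, 0 were called in either direction in limma, although 4 had an unadjusted p under 0.05. At any fold, 3 of the 6 had an adjusted p under 0.05, against 29.1% of all genes, and these missed the fold threshold alone. RB1 itself changed by 0.36 (SE 0.07, limma adjusted p = 0.0101), just under the fold threshold. Of its 3 probe sets, 1 was called higher, a dimmer one than that used here.

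Of 16 genes for ubiquitin ligase subunits, cofactors and deubiquitinases of p21, p27 and p57, 2 were higher and 2 lower. SKP2, the F-box protein that targets p27, was at 6.16, 6.25 and 6.03 in epirubicin arrays against 6.77, 6.75 and 6.75 in shCtrl arrays. The groups did not overlap (log2 change -0.61, SE 0.06, limma adjusted p = 0.000529), with 1 of 2 probe sets called. CDC20, which activates the anaphase-promoting complex, fell by 2.29 (SE 0.04) on the log2 scale, with 2 of 3 probe sets called. PCNA, on which p21 is degraded during replication, rose by 0.45 (SE 0.03) and the deubiquitinase gene USP11 by 0.43 (SE 0.05).

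Of 22 measured genes among 25 listed transcription factors that act on CDKN1A or CDKN1B, 2 were higher, SMAD3, a mediator of TGF-beta signals (0.80, SE 0.06, 2 of 5 probe sets), and CEBPB (0.50, SE 0.04), and 1 was lower, MYC, which represses CDKN1A (-0.52, SE 0.03). Of 13 kinases known to phosphorylate p21 or p27, 0 were called in limma: their log2 changes lay between -0.25 and 0.24, and 8 had an unadjusted p under 0.05. At any fold, 4 of the 13 had an adjusted p under 0.05, against 29.1% of all genes, and these missed the fold threshold alone. Of 17 Polycomb and related regulators of the INK4 genes, 0 were higher and 2 lower, ID1 (-0.79, SE 0.05) and ETS1 (-0.44, SE 0.05), on 3 of 3 probe sets each. EZH2, the Polycomb methyltransferase, changed by -0.08 (SE 0.04) and was not called. Of 5 partners of ARF, MDM2 was higher (1.08, SE 0.04, on 11 of 11 probe sets), and the other 4 were called in neither direction. The medians of these 4 lists were 0.11, 0.02, 0.05 and 0.04, and that of all genes was 0.02.

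**Figure D4:**
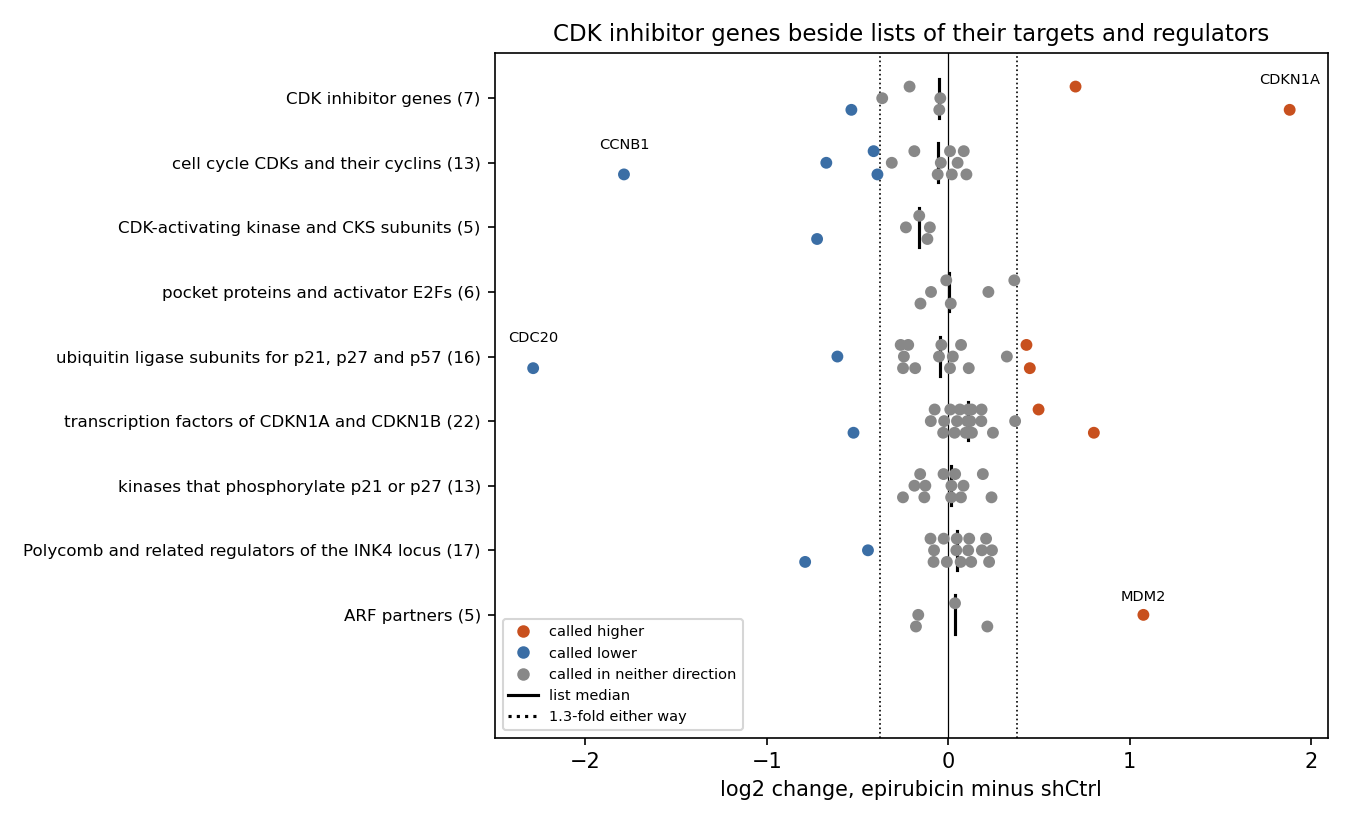
Log2 change, epirubicin minus shCtrl (horizontal axis), of the 7 CDK inhibitor genes (top row) and of 8 lists of their targets and regulators, one point per gene, with the number measured in brackets. Most points lie within the dotted lines of 1.3-fold; CDKN1A and MDM2 lie far to the right, CCNB1 and CDC20 far to the left.

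The label of a myeloma line was checked against marker genes. All 10 plasma cell markers had a mean signal above the median of all values (5.54) in at least 1 group. CD38 passed it in shCtrl alone, with a mean of 6.42 there and 5.25 with epirubicin. The mean over the list was 10.5 to 10.6 per array with epirubicin and 10.7 to 10.8 in shCtrl. Of the 10, 2 were called lower, CD38 and IRF4. The T and NK, stromal and epithelial lists, of 6 genes each, had 0 called in limma. They had 2, 1 and 2 genes at an unadjusted p under 0.05, and 1, 0 and 0 at an adjusted p under 0.05. Of 6 myeloid markers 2 moved with the change in CDKN1A: ITGAM (log2 change 3.75) and CD68 (0.63). The mean over the myeloid list was 4.44 to 4.51 with epirubicin and 3.67 to 3.72 in shCtrl. The monocyte markers CD14 and LYZ averaged 2.95 and 2.52 with epirubicin and 2.79 and 2.39 in shCtrl, dimmer than the lower quartile of signals on every array. FCGR3A was dim too, at 1.84 with epirubicin and 1.85 in shCtrl. CSF1R averaged 5.07 in both groups, above the lower quartile and below the median of all values. The part of these markers in the result for CDKN1A was not tested.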

How the data were processed

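The authors' deposited log2 expression values of 47481 probe sets on 6 arrays were used. No label states the scale, which was taken as log2 from the range of 1.41 to 13.7. The submitters' processing notes name the affy package alone. How background, normalization and probe summary were handled is not given in the sources used here. Medians of the arrays ran from 5.52 to 5.57 and nothing further was normalized, so differences are relative to the bulk of transcripts. Across genes, which are not replicates, r was 0.9985 to 0.9987 within groups and 0.9947 to 0.9949 between them.

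The platform annotation gave 43976 probe sets 1 symbol, 1558 several and 1947 none. Of the single symbols, 43954 matched RefSeq (GRCh38.p14) by Entrez number and took its current name. The brightest probe set stood for each gene. limma 3.58.1 in R 4.3.3 (lmFit, eBayes, all 6 arrays, no covariate) was fitted on all genes and on all probe sets, with Benjamini-Hochberg adjustment over each table, and was tested on simulated data. Differences between members' changes used an exact permutation test (scipy 1.17.1). Alternatives comprised other probe set choices, scaling, a filter on dim probe sets, other tests and fold thresholds, a replicate block and leaving out each array. Text names all members, every called gene of the 8 pathway lists and the 3 genes nearest to each called member. It also names a few uncalled ones chosen after their values were seen (CDK1, CDK2, CDK4, CCND1, CCNE1, CKS1B, RB1, EZH2, CD14, LYZ, CSF1R, FCGR3A). Members and lists were chosen with earlier results of these data known. Array number limits the precision.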

Additional observations from a re-analysis of the deposited data

How the results depend on the processing

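CDKN1A was higher under all 16 alternatives, with log2 changes from 1.85 to 1.95. CDKN1C was higher under 15 of 16 (0.67 to 0.84), the exception being the 2-fold threshold. CDKN3 was lower under 14 of 16 (-0.60 to -0.47), the exceptions being the 2-fold threshold and treat. CDKN1B and CDKN2B were called under none of those run, and no member changed sign. The other tests and fold thresholds, the filter on dim probe sets and the replicate block leave the log2 change itself as it is. Sign and range therefore rest on the remaining alternatives. Of the counts, a 2-fold threshold left 1 gene and 2 probe sets higher and 0 genes and 0 probe sets lower, by its own construction. In limma's treat 0 genes and 1 probe set were lower, although at an unadjusted p under 0.05 it gave 1 gene and 7 probe sets. With no fold threshold 3 genes were lower (CDKN2A, CDKN2D and CDKN3), and with arrays centred on their medians 2. Leaving out 1 array gave 1 to 2 genes lower, with CDKN2D added in 3 of those 6 cases. The replicate block left 2 genes higher and 1 lower, and 5 and 7 probe sets, with 755 and 372 of all genes. Same-numbered arrays did not deviate together (every r across genes was below 0.1), so the numbers were not taken as pairs. Without detection calls, the dim CDKN2B signal limits what can be read.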

Other observations

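MTAP, the neighbour of CDKN2A and CDKN2B and a gene often lost together with them, was read by 6 probe sets, 0 of them called in limma in either direction and 1 at an unadjusted p under 0.05. Its probe set values lay between 5.44 and 7.51 over the 6 arrays. The antisense transcript CDKN2A-AS1 was at 4.35, 4.32 and 4.44 in epirubicin arrays against 4.47, 4.26 and 4.44 in shCtrl arrays, which overlapped (log2 change -0.02, CI -0.17 to 0.14). CDKN2AIP, which encodes a partner of ARF, changed by 0.04 (SE 0.05) and was not called.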
